A study of Mus musculus with 8 samples.

Results

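The interferon-inducible GTPases that guard the inside of a cell form a pair of families, the guanylate-binding proteins (GBPs) and the immunity-related GTPases (IRGs). The 9 genes described here are the IRG genes Igtp, Irgm1, Irgm2 and Iigp1 and the GBP genes Gbp2, Gbp3, Gbp4, Gbp6 and Gbp7. They were taken by symbol from the deposited table, which held all 9 among its 22609 genes, and all 9 passed the filter on low values (a mean of 10 or more). The samples were naive CD8 T cells of spleen, taken from C57BL/6 mice at an age of 3 months, with 4 libraries of Brca1 heterozygous mice (Het 31, 53, 56 and 139) and 4 of Brca1 wild type mice (WT 45, 54, 57 and 65), measured by mRNA sequencing. The numbers are those of the sample titles. How the Brca1 allele was made is not stated in the labels, and no label calls each library a separate mouse, so the p-values reflect only how these libraries vary, which may be technical.

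Interferon gamma binds a receptor made of Ifngr1 and Ifngr2, which signals through the kinases Jak1 and Jak2. Interferon signals reach GBP and IRG genes through GAS and ISRE elements, short sequences that lie close to the starts of many of them, and the factor Irf1 binds ISRE elements. IRG proteins of the effector kind, such as the product of Iigp1, and many GBPs load onto the membranes around intracellular parasites and bacteria, while the regulatory IRG proteins Irgm1, Irgm2 and Igtp (also called Irgm3) sit on the cell's own membranes and hold the effectors back from them. Most of this is known from mouse macrophages and fibroblasts, and lymphocytes carry the same genes.

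The stretches in front of these genes are shown because interferon is known to act on many genes of these families through GAS and ISRE elements there. RefSeq windows of 300 bases (250 before to 50 after each transcript start, build GRCm38.p6) were found for 6 of the 9 genes, and Iigp1, Gbp4 and Gbp6 had none. GAS was searched as TTCNNNGAA and ISRE as GAAA, any 2 bases and GAAA again, both on either strand. The 120 bases just before each start are printed 5′ to 3′ on the gene's strand, and capitals mark every base inside a match to either motif.
Igtp (chr11:58199436-58199555, plus strand): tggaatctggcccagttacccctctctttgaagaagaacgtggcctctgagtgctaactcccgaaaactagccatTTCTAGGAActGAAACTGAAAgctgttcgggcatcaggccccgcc
Irgm2 (chr11:58214857-58214976, plus strand): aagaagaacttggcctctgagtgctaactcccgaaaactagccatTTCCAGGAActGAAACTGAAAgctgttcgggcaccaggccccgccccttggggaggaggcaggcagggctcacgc
Irgm1 (chr11:48871421-48871540, minus strand): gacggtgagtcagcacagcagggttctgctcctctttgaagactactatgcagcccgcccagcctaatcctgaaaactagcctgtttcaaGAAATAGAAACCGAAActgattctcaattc
Gbp2 (chr3:142620543-142620662, plus strand): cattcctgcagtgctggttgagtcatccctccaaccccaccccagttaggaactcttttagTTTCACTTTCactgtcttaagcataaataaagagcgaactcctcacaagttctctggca
Gbp3 (chr3:142559924-142560043, plus strand): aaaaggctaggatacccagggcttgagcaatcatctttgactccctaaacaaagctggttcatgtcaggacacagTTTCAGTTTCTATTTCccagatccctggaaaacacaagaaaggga
Gbp7 (chr3:142530216-142530335, plus strand): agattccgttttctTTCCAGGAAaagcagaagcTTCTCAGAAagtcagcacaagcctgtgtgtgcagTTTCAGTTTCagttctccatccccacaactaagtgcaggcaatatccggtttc

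All 6 genes had an ISRE match in this stretch, where 3.44% of the 32851 RefSeq windows have one anywhere. Igtp, Irgm2 and Gbp7 also had a GAS match, which 8.3% of windows have, and 0.454% of windows have both motifs. Igtp and Irgm2, which are neighbours on chromosome 11, carry the same arrangement of a GAS match 2 bases before an ISRE match, starting 45 bases before the start of Igtp and 75 bases before that of Irgm2. In Irgm1 and Gbp3 a pair of ISRE matches overlap by 4 bases. A second RefSeq start of Gbp3 had no match to either motif. Of 9 other family genes with a window, 6 had an ISRE match, among them Gbp5 and Tgtp2, while Ifi47, another effector IRG, had no match to either. A match is a description of these letters and shows no binding.

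**Figure D1:**
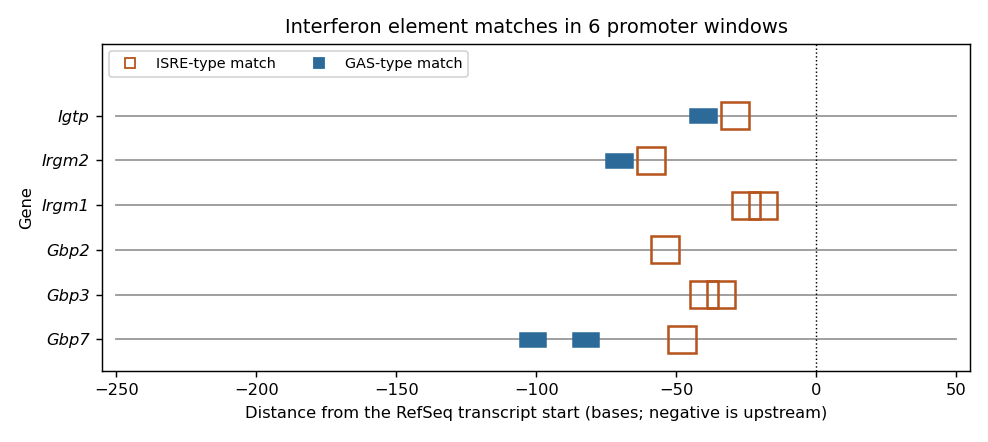
Matches to the ISRE motif (open orange boxes) and the GAS motif (filled blue boxes) in the first RefSeq window of 6 genes; the x axis is the distance in bases from the transcript start, and each row is a gene. Every row has an ISRE match within 64 bases upstream of the start, and Igtp, Irgm2 and Gbp7 also have GAS matches.

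The 8 libraries were deposited on a shared scale, since their sorted values were the same up to ties, so totals say nothing of depth. The number of different values up to 100, which estimates the reads behind a value of 100, was 74 to 121 in Het and 106 to 128 in WT libraries, and genes above 0 numbered 13863 to 14656 in Het and 15358 to 15569 in WT libraries. The lowest value of any of the 9 genes in any library was 905.2, far above these limits. The defining markers of naive CD8 T cells were high throughout, with a mean log2 level of 11 markers of 14.57 to 14.78 in Het and 14.51 to 14.67 in WT libraries. Brca1 itself had normalized read counts of 126.7 to 174.5 in Het and 148.6 to 208.1 in WT libraries (log2 difference -0.25, limma adjusted p = 0.742), so it gave no check of the labels.

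None of the 9 genes passed the test between the genotypes, although each of them had a higher mean in Het than in WT libraries. The test was limma on log2(value + 1) over 12048 genes with Benjamini-Hochberg adjustment, and it called 0.515% of all genes, all of them lower in Het (0% higher in Het). The fitted log2 differences of the 9 genes ran from 0.08 for Gbp7 to 0.43 for Iigp1, with a median of 0.20, beside a median of 0.01 over all genes tested. A difference above 0 was fitted for 9 of 9 of these genes and for 52% of all genes. The limma adjusted p-values lay between 0.542 for Igtp and 0.864 for Gbp7. At an unadjusted limma p under 0.05 there were 2 of the 9, Igtp and Irgm1, both higher in Het, where 8.19% of all genes were under that level and 3.79% were under it and higher. By the exact permutation test over the 70 ways to split the libraries, whose smallest p is 0.0286, 0 of the 9 were under 0.05. In no gene were the genotypes free of overlap, where 2.13% of all genes had every Het library above every WT library. The 9 genes vary together over libraries, so their shared sign is not 9 separate observations.

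**Figure D2:**
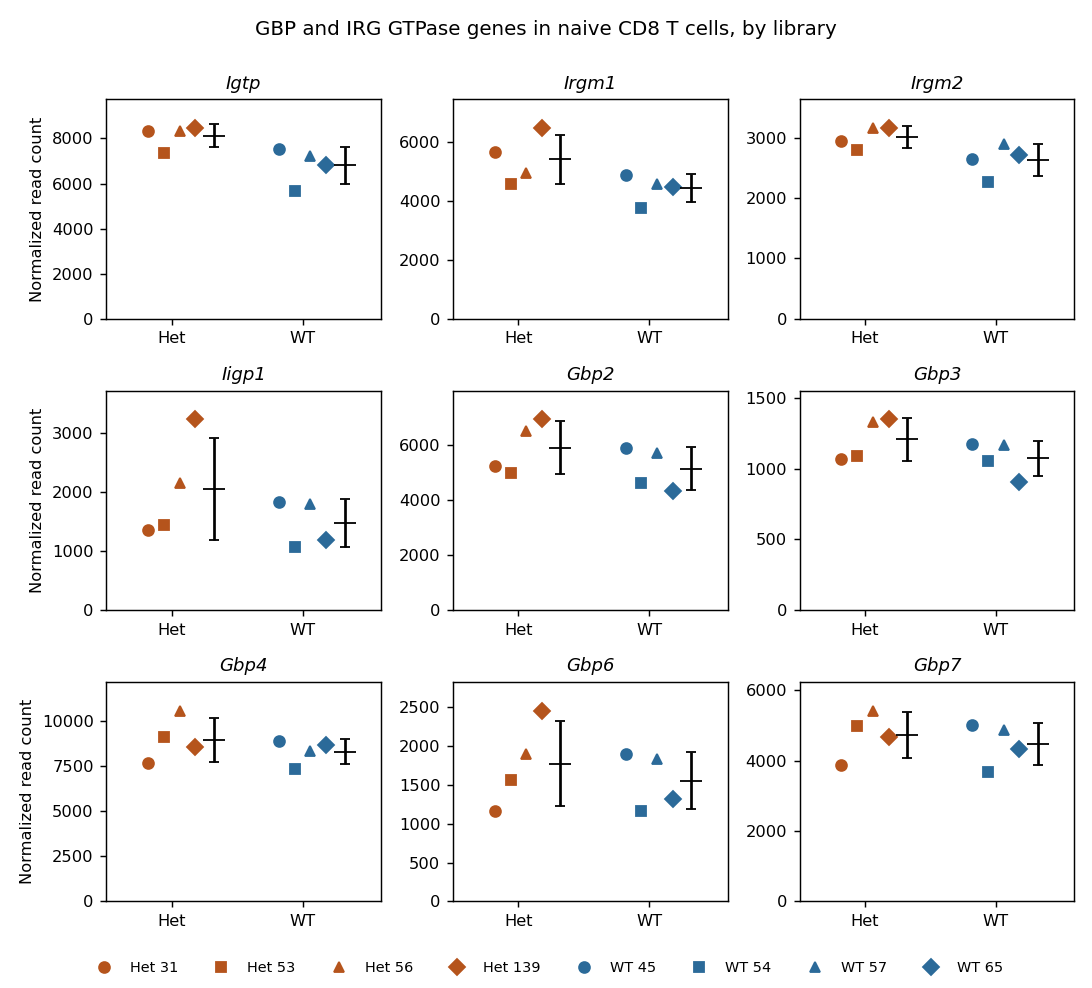
Normalized read count (y axis, from 0) of each gene in the 4 Het libraries (left, orange) and the 4 WT libraries (right, blue), with a marker shape for each library and the mean ± SD (n = 4) beside them in black. The genotypes overlap in all 9 panels, and Het 139 is the highest library in 7 of them.

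Among the regulatory IRGs, Igtp, whose product is known from endoplasmic reticulum membranes, had normalized read counts of 8322.8, 7371.8, 8354.2 and 8462.3 in Het 31, 53, 56 and 139, against 7549.6, 5654.8, 7212.8 and 6815.3 in WT 45, 54, 57 and 65. Of the Het libraries 3 lay above every WT library, and Het 53 lay below WT 45. Igtp averaged 8128 ± 508 in Het and 6808 ± 825 in WT (SD, n = 4 each). Its log2 difference of 0.26 had a 95% interval of 0.03 to 0.49 before adjustment (SE 0.10, limma adjusted p = 0.542, exact permutation p = 0.0571).

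Irgm1, which is needed for resistance of mice to several intracellular bacteria, showed a similar difference with more spread in Het. It had normalized read counts of 5675.4, 4572.8, 4950.9 and 6483.9 in Het 31, 53, 56 and 139, against 4902.8, 3765.4, 4592.2 and 4493.2 in WT 45, 54, 57 and 65. Het 139 and Het 31 stood clearly above the WT range, Het 56 was just above it, and Het 53 was inside it. The means were 5421 ± 844 in Het and 4438 ± 481 in WT (SD, n = 4 each), and the fitted log2 difference was 0.28 (SE 0.12, limma adjusted p = 0.600, exact permutation p = 0.0857).

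Irgm2, a regulator known to restrain the caspase-11 inflammasome in mouse macrophages, had normalized read counts of 2947.1, 2790.5, 3159.3 and 3160.6 in Het 31, 53, 56 and 139, against 2648.9, 2272.1, 2903.5 and 2715.4 in WT 45, 54, 57 and 65. Again 3 Het libraries were above every WT library, and Het 53 was below WT 57. The means were 3014 ± 179.8 in Het and 2635 ± 265 in WT (SD, n = 4 each), and the fitted log2 difference was 0.20 (SE 0.10, limma adjusted p = 0.641, exact permutation p = 0.0571).

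Iigp1, the effector IRG that coats the vacuole of Toxoplasma, varied most among the 9 genes. It had normalized read counts of 1349.3, 1441.9, 2154.9 and 3221 in Het 31, 53, 56 and 139, against 1832.3, 1059.9, 1795.9 and 1177.1 in WT 45, 54, 57 and 65. Its highest library was 3.04 times its lowest, and the values of the genotypes interleaved apart from Het 56 and Het 139 at the top. The means were 2042 ± 865 in Het and 1466 ± 405 in WT (SD, n = 4 each), and the fitted log2 difference was 0.43 (SE 0.28, limma adjusted p = 0.690, exact permutation p = 0.286). Without Het 139 the log2 difference of Iigp1 was 0.18, and that of Gbp2 0.12.

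The GBP genes on chromosome 3 were Gbp2, Gbp3 and Gbp7. Gbp2, whose lipid-anchored product is recruited to the Toxoplasma vacuole, had normalized read counts of 5236.9, 4969.4, 6494.2 and 6929.8 in Het 31, 53, 56 and 139, against 5899.6, 4631.4, 5710.3 and 4331.4 in WT 45, 54, 57 and 65. Het 56 and Het 139 were above the WT range and Het 31 and Het 53 inside it, giving a log2 difference of 0.20 (SE 0.14, limma adjusted p = 0.713, exact permutation p = 0.257). Gbp3, also found at that vacuole, had 1069.2, 1085, 1326.2 and 1346.8 in the same order of Het libraries, against 1171.4, 1049.9, 1162.8 and 905.2 in the WT libraries. The order of libraries was close to that of Gbp2, and the means of Gbp3 were 1207 ± 150.1 in Het and 1072 ± 124 in WT (SD, n = 4 each, log2 difference 0.17, limma adjusted p = 0.724, exact permutation p = 0.229). Gbp7, linked in mouse macrophages to assembly of the NADPH oxidase, had normalized read counts of 3865.6, 4972.6, 5412.1 and 4665.2 in Het 31, 53, 56 and 139, against 5003.3, 3681.4, 4871.2 and 4316 in WT 45, 54, 57 and 65. Only Het 56 of the Het libraries was above the WT range in Gbp7, and its difference was the smallest of the 9 (log2 0.08, SE 0.13, limma adjusted p = 0.864, exact permutation p = 0.629).

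The GBP genes on chromosome 5 were Gbp4 and Gbp6. Gbp4 had normalized read counts of 7666.1, 9123.8, 10572.2 and 8554.4 in Het 31, 53, 56 and 139, against 8881.8, 7327.6, 8322.8 and 8692.2 in WT 45, 54, 57 and 65. Its top library was Het 56, and Het 139 lay in the middle (log2 difference 0.11, SE 0.11, limma adjusted p = 0.790, exact permutation p = 0.371). The log2 difference of Gbp4 was 0.02 without Het 56 and 0.05 without WT 54. Gbp6, another GBP that reaches the Toxoplasma vacuole, had 1164.3, 1559.6, 1904.4 and 2454.2 in those Het libraries, against 1893.3, 1159.9, 1832.9 and 1318.4 in the WT libraries. Het 31 was almost as low as WT 54, the lowest library, and Het 139 was the highest (log2 difference 0.17, SE 0.23, limma adjusted p = 0.836, exact permutation p = 0.543). Of the 50-base stretches of Gbp6 transcripts in GENCODE M21, 45.9% also occur in Gbp10 transcripts, so how their reads were shared out is not known and the value of Gbp6 is uncertain. For the other 8 genes, stretches shared with any gene of the table were 11.8% in Igtp (all with Irgm2) and lower elsewhere. On the same strand, exons of Igtp and Irgm2 overlap by 162 bases and those of Gbp4 and Gbp8 by 61. Those of Gbp7 and the gene model Gm43802 overlap by 637, and those of Gbp6 and the model Gm43302 by 1726. These overlaps add to the uncertainty.

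The intervals give the size of difference that these libraries leave room for. The upper end of the 95% interval was 1.28-fold for Gbp4, 1.29-fold for Gbp7, 1.33-fold for Irgm2 and 1.596-fold for Gbp6. For Iigp1 it was 2.06-fold. The lower ends ran from 0.79-fold for Gbp6 to 1.02-fold for Igtp.

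**Figure D3:**
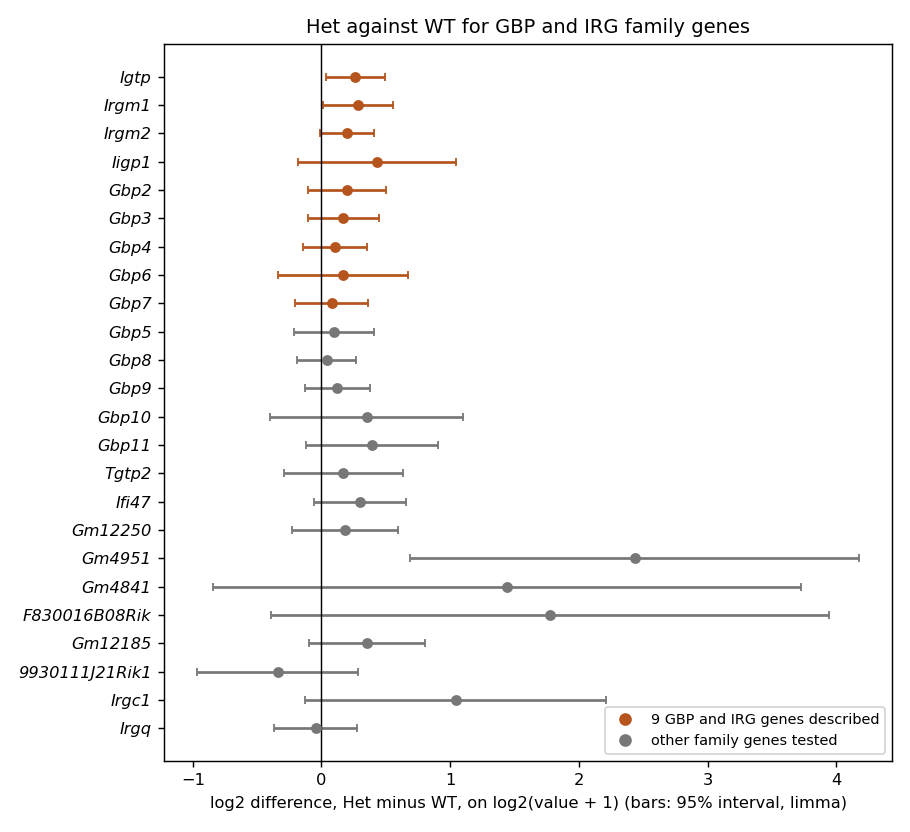
Fitted log2 difference (x axis, Het minus WT, on log2(value + 1)) with its 95% interval from limma for the 9 genes (orange) and the 15 other GBP and IRG family genes tested (grey). The 9 points all lie between 0.08 and 0.43, and the intervals of Igtp and Irgm1 among them lie above 0 before adjustment.

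Per kilobase of the longest coding transcript in GENCODE M21, Igtp was at the highest level of the 9 genes in all 8 libraries, at 4019.7 ± 251 per kilobase in Het and 3367 ± 408 in WT (SD, n = 4 each). Gbp2 followed at 2348 ± 378 in Het and 2044 ± 309 in WT, and Irgm1 was at 2399.6 ± 373 in Het and 1965 ± 213 in WT, with Gbp2 above Irgm1 in 4 of the 8 libraries. Gbp4 came next, above Gbp7 in 8 of 8 libraries. Gbp7 and Irgm2 could not be ordered (5 of 8 libraries). Gbp3 was the lowest, at 450.0 ± 56.0 per kilobase in Het and 399.8 ± 46.4 in WT. The order of Irgm1 and Gbp4, and of Gbp6, Iigp1 and Gbp3, changed when the length of all annotated exons was used. Which transcripts these cells make is not shown by a value per gene.

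The same libraries were high or low in most of the 9 genes. Het 139 was the highest library in 7 of 9 genes and Het 56 in the other 2 (Gbp4 and Gbp7), and WT 54 was the lowest in 7 of 9 and WT 65 in the other 2 (Gbp2 and Gbp3). Among all tested genes Het 139 was the highest library in 16.5% and WT 54 the lowest in 10.3%. The mean log2 level of the 9 genes was 11.65, 11.71, 11.97 and 12.07 in Het 31, 53, 56 and 139, and 11.82, 11.40, 11.79 and 11.55 in WT 45, 54, 57 and 65. Het 31 and Het 53 thus lay between the WT libraries, below WT 45 and WT 57. Over the 36 pairs of the 9 genes, Pearson's r across the 8 libraries had a median of 0.62 and ran from 0.18 (Irgm1 and Gbp4) to 0.97 (Gbp2 and Gbp3), given as a description over libraries that share genotype and preparation. Without Het 139 the median r over the pairs was 0.66.

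Leaving out Het 139 left 8 of the 9 genes with a difference above 0, with a median log2 difference of 0.13, and brought Gbp6 to -0.0053. Leaving out WT 54 also left 8 of 9, with a median of 0.15 and Gbp7 at -0.0082. In both cases 0 of the 9 genes were under an unadjusted limma p of 0.05, and the same held without Het 31.

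**Figure D4:**
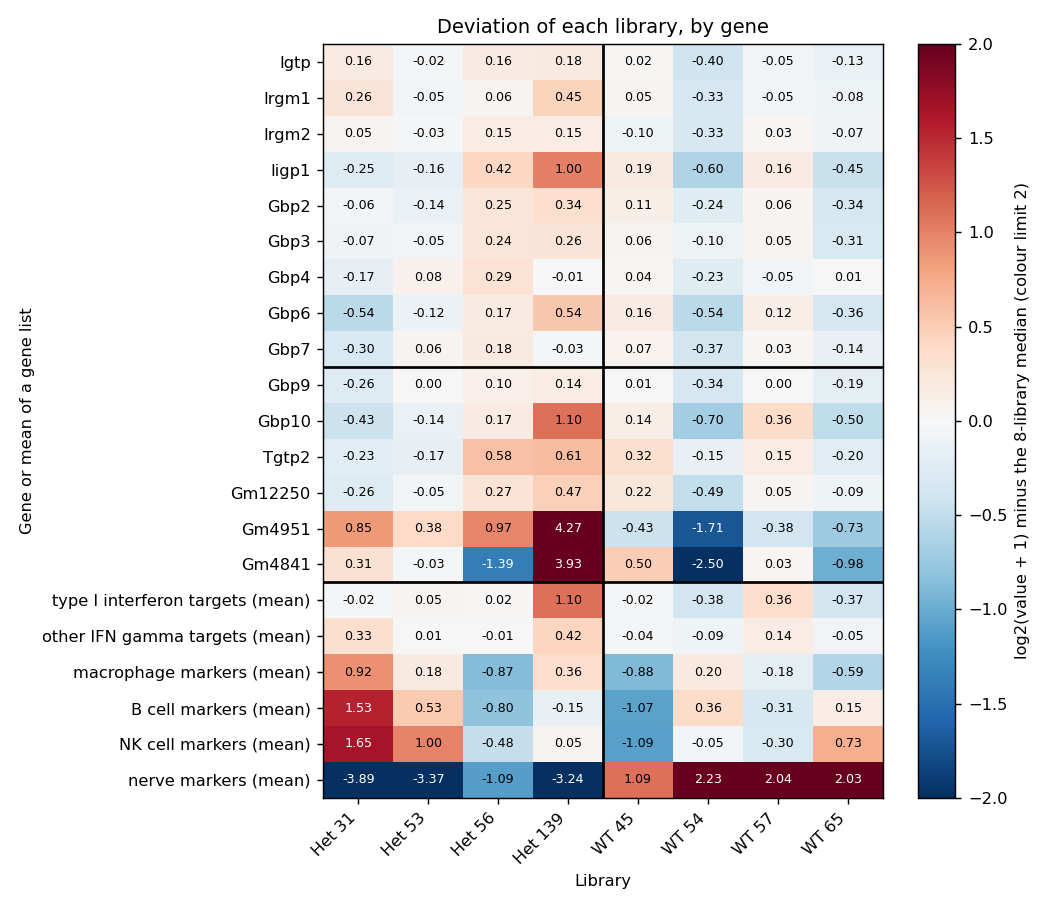
Deviation of each library (columns, 4 Het left of 4 WT) from the median of the 8 libraries in log2(value + 1), for the 9 genes (top block), 6 other family genes (middle) and the mean log2 level of 6 gene lists (bottom); colours stop at 2 and the numbers give the values. Het 139 is high in type I interferon targets and in most of the genes shown, but not in Gbp4 and Gbp7. The markers of other blood cells peak in Het 31. The 6 other family genes shown are all highest in Het 139, which held for 8 of the 15 tested. Of those not shown, Gbp5, Gbp8 and Irgq were low in Het 139 (1321.9, 2549.8 and 880.8).

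Other genes of the GBP and IRG families did not pass the test either, and Het 139 was the highest library in 8 and WT 54 the lowest in 10 of the 15 tested. Of 19 listed family genes, all were in the table and 15 were tested, of which 13 were higher and 2 lower in Het, 0 were called by limma, and the median log2 difference was 0.30 (0.17 without Het 139). The family members beside Gbp4 and Gbp6 on chromosome 5 were Gbp8, Gbp9, Gbp10 and Gbp11. Gbp9 was at 5088 ± 609 in Het and 4666 ± 540 in WT, and Gbp8 at 2823 ± 383 and 2728 ± 113 in Het and WT. Gbp10 was at 335 ± 172 in Het and 252 ± 86.7 in WT (SD, n = 4 each throughout). The value of Gbp10 is uncertain, since 73.3% of its 50-base stretches also occur in Gbp6. Gbp5, which promotes inflammasome assembly in mouse macrophages, was at 1557 ± 314 in Het and 1441 ± 149.9 in WT (log2 difference 0.10, limma adjusted p = 0.846). Ifi47, an effector IRG, was at 11412 ± 2299.9 in Het and 9248 ± 1754 in WT (log2 difference 0.30, limma adjusted p = 0.653), and its highest library was Het 31. Fitted log2 differences were 0.39 for Gbp11, 0.18 for Gm12250 (the effector Irgb10), 0.35 for Gm12185 and -0.05 for Irgq (limma adjusted p = 0.662, 0.782, 0.660 and 0.935). Gbp1 and 9930111J21Rik2 were below the filter on low values. Tgtp2 was at 1888 ± 587 in Het and 1634 ± 281 in WT, while its near-copy Tgtp1 was listed at 0 in every library. Because 85.8% of the 50-base stretches of Tgtp2 also occur in Tgtp1, the value of Tgtp2 is that of one or both genes.

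The relatives of Iigp1 on chromosome 18 were at low levels and were highest in Het 139. Gm4951 had normalized read counts of 29.2, 20.8, 31.7 and 322.1 in Het 31, 53, 56 and 139, against 11.4, 4.1, 11.8 and 9.1 in WT 45, 54, 57 and 65. Every Het library was above every WT library, and Het 139 was 10.2 times the next highest (log2 difference 2.43, SE 0.79, limma adjusted p = 0.394, with the permutation test at its exact minimum of 0.0286). Without Het 139 the log2 difference of Gm4951 was 1.55. Gm4951 was the 1 gene of the 15 other family genes tested without overlap. Of all genes tested, 2.13% had every Het library above every WT library. Gm4841 had 38.2, 29.9, 11.1 and 482.5 in the Het libraries, against 43.6, 4.6, 31.4 and 15 in the WT libraries (limma adjusted p = 0.718), so that Het 139 was 11.1 times the next highest. F830016B08Rik had 8.5, 1, 27.4 and 48.2 in the Het libraries, against 3.1, 1.9, 5.8 and 1.4 in the WT libraries (limma adjusted p = 0.653). Its highest library was Het 139 and its lowest Het 53. Values this low rest on few reads, most of all in Het libraries, where the lowest value above 0 was 0.9 to 1.9.

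Upstream of these GTPases, the interferon receptors and kinases did not pass the test. Ifng, the gene of interferon gamma, had normalized read counts of 134.4, 92.1, 30.1 and 70.7 in Het 31, 53, 56 and 139, against 22.5, 20.1, 38.1 and 79.8 in WT 45, 54, 57 and 65 (log2 difference 1.04, limma adjusted p = 0.652). Het 31 was the highest in Ifng and Het 56 and Het 139 were within the WT range, an order unlike that of the GTPase genes. The type I interferon genes Ifnb1, Ifna1, Ifna2 and Ifna4 were listed at 0 in all 8 libraries. Of 6 receptor genes 4 were higher and 2 lower in Het with 0 called, with Ifngr1 at a log2 difference of -0.12 and Ifngr2 at 0.08 (limma adjusted p = 0.765 and 0.808). Ifnar1, a chain of the type I interferon receptor, was at 5103.6 to 6241.5 in Het and 4779.6 to 5484.8 in WT libraries (limma adjusted p = 0.590).

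Of 13 tested transducers and factors, 9 were higher and 4 lower in Het, and 0 were called by limma. Irf1 differed by 0.09 on the log2 scale, Jak1 by -0.04 and Jak2 by -0.01 (limma adjusted p = 0.804, 0.928 and 0.983). Of 7 inhibitors 6 were higher in Het with 0 called. Socs1, which blocks the Jak kinases, was at 609.7 to 1064.2 in Het and 682.3 to 867.8 in WT libraries, and Usp18, a brake on type I interferon signalling, was at 3330.2 in Het 139 against 744.9 to 1248.7 in each of the other 7 libraries.

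Targets of type I interferon were also highest in Het 139. Of the 28 targets tested, 27 were higher in Het (median log2 difference 0.31) and 0 were called by limma, and Het 139 led in 28 of 28. Without Het 139 the list had 23 of 28 higher and a median of 0.13. Its mean log2 level was 9.96, 10.04, 10.01 and 11.09 in Het 31, 53, 56 and 139, and 9.96, 9.61, 10.34 and 9.62 in WT 45, 54, 57 and 65. Trim30a, a regulator of innate signalling, and Ifit2, an antiviral RNA-binding protein, were the list's members without overlap of the genotypes (limma adjusted p = 0.489 and 0.620). These were 2 of 28, both higher in Het, where 2.13% of all genes had every Het library above every WT library. Of 22 other tested interferon gamma targets, 20 were higher in Het (median log2 difference 0.12) with 0 called, and without Het 139 there were 17 higher and the median was 0.06. Serpina3g, a protease inhibitor, had the smallest p of that list, at 167.4 to 746 in Het and 168.2 to 220.4 in WT libraries (limma adjusted p = 0.496).

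Ranked by likeness to the mean log2 level of the 9 genes over 8 libraries, the first 10 of 9551 genes were Ifih1, Oasl2, Gbp9, Ddx58, Nfx1, Eif2ak2, Zbp1, Gbp10, Ppp1r3b and Zbed4. Gbp10 shares 73.3% of its 50-base stretches with Gbp6, which is part of that mean. How far its place rests on shared reads was not tested. Ifih1, a sensor of double-stranded RNA, had a Pearson r of 0.94 and a Spearman rho of 0.93, and the tenth, Zbed4, an r of 0.92 and a rho of 0.93. Over the 7 libraries without Het 139 the order changed, and Zbed4, Ddx58, Gbp9 and Eif2ak2 were again among the first 10, with Gbp5 in the fourth place (r 0.94). Irf1 had an r of 0.42 over 8 libraries and Ifng of 0.03. The points share libraries and genotype, and these values are descriptions.

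Partners of the GTPases at the vacuole and in the inflammasome did not pass the test. The conjugation of ATG8-type proteins to membranes, together with ubiquitin, directs IRG and GBP proteins to vacuoles in mouse cells. Of 16 genes of that machinery 11 had a higher and 5 a lower mean log2 value in Het, with a median difference of 0.08 and 0 called. Gabarapl1, an ATG8 family gene, was at 127.8 to 159.6 in Het and 163.1 to 238.6 in WT libraries without overlap (log2 difference -0.47, limma adjusted p = 0.538). Atg7 was at 476.2 to 604.5 in Het and 604.6 to 724.2 in WT libraries, also without overlap (log2 difference -0.21, limma adjusted p = 0.660). Trim21, a ubiquitin ligase, was at 2466.9 to 2766.8 in Het and 2135.6 to 2466.6 in WT libraries, a gap of less than 1 unit between the genotypes (log2 difference 0.17, limma adjusted p = 0.646). Of the 16 genes, 1 was thus higher and 2 were lower in Het without overlap, where 5% of all genes had no overlap in either direction. Of 8 inflammasome genes 6 were higher and 2 lower, and Casp1, the inflammatory caspase, was at 379.1, 228.4, 246.3 and 491.4 in Het 31, 53, 56 and 139, against 173.2, 222.5, 166.9 and 169.9 in WT 45, 54, 57 and 65 (log2 difference 0.81, limma adjusted p = 0.336, exact permutation p = 0.0286). Every Het library was above every WT library in Casp1, the 1 gene of these 8 without overlap. Of all genes tested, 2.13% had that order, and 0.0286 is the smallest p the permutation test can give. Of 7 genes of the prenylation pathway, through which some GBPs gain a lipid anchor, 3 were higher and 4 lower (median log2 difference -0.0039).

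Macrophages and B cells also express GBP and IRG genes, and RNA of such cells was present. In bulk RNA, fewer cells of a type and less RNA per cell cannot be told apart. Of 14 tested macrophage and monocyte markers 13 were higher in Het, with 0 called, and their summed level was 8992 to 17612 in Het and 8861 to 12470 in WT libraries. Of 12 B cell markers 12 were higher, with 0 called and a summed level of 10478 to 62853 in Het and 9547 to 25672 in WT libraries. None of the macrophage or B cell markers was at 0 in all libraries. The mean log2 level of macrophage markers was 8.81, 8.07, 7.02 and 8.25 in Het 31, 53, 56 and 139, and 7.01 to 8.09 in WT libraries. Het 139, the highest library in most of the GTPase genes, was second to Het 31 in this level and the highest of 8 libraries in 3 of the 14 tested markers (Lyz2, Cd14 and Ctss), while Het 56 was second lowest. WT 54, the lowest in the GTPase genes, was the highest WT library in both marker lists. With the macrophage marker level as a covariate the 9 genes had a median log2 difference of 0.27, and with the B cell marker level 0.30, with 9 of 9 above 0 and 0 called in each. These fits cannot separate such RNA from genotype, since most of the markers were themselves higher in Het. The part of macrophage and B cell RNA in the values of the GTPase genes was not tested. NK cell markers were highest in Het 31 and Het 53 (6 of 7 tested higher in Het, 0 called), with Klra4 at 0 in every library. Effector and memory CD8 markers were highest in Het 31 and Het 139 (11 of 14 higher, 0 called). The part of both lists in the differences of the GTPase genes was not tested.

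RNA of nerve and connective tissue differed with genotype beside these values. Of 11 nerve and Schwann cell markers, a list that holds genes already known to fall in these data, 8 fell in Het by limma, and their mean log2 level was 2.67 to 5.47 in Het and 7.66 to 8.80 in WT libraries. Of 9 tested stroma and endothelium markers 7 were lower and 2 higher in Het, with a median log2 difference of -1.87. By limma 1 was called, lower in Het, and 6 were lower at an unadjusted limma p under 0.05. Their part in the differences of the GTPase genes was not tested.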

How the data were processed

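Naive CD8 T cells were isolated directly from splenocytes, and stranded mRNA libraries were made, per the labels' protocols. The deposited values are a linear signal for each gene, called normalized read counts here, in 1 table written by the authors with 1 decimal. CASAVA, TopHat2, HTSeq, DESeq and the build mm9 are named, without roles, per the submitters' processing notes, while how the values were normalized, and whether counting used strand, is not given in the sources used here. When each library was sorted, all 9513 ranks averaging 100 or more were within 2% of the rank's mean in each of the 8 libraries (100%), as quantile normalization gives, so a difference in total RNA cannot be seen and no count model was used.

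Genes with a mean of at least 10 were tested with limma 3.58.1 (R 4.3.3) with a trend, on log2(value + 1), 2-sided, adjusted by Benjamini-Hochberg over 12048 genes at 0.05; fold changes are on that scale and understate those of low genes. The procedure was tested on simulated data. Single genes were also compared by an exact 2-sided permutation test. No label gives a sex, litter, day or batch. All 9 genes and the other family genes are named, and of other lists up to 4 genes with the smallest p and the main pathway genes; not all that this rule takes are described, and 1 gene it takes is not reported here. The 9 genes, the 22 lists, tests and alternatives were chosen with earlier results of these data known. Likeness was ranked over named genes with a mean of at least 50, leaving out gene models. Promoters are RefSeq's (GRCm38.p6); lengths, and shared stretches (50 bases, chosen here since the read length is not given), come from GENCODE M21 on GRCm38, not the authors' build.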

Additional observations from a re-analysis of the deposited data

Results flagged for a closer look

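Within 1 genotype, a library was looked at again when its gap to the nearest of the other 3 was nearly the whole range. That held for 9 of 136 groups of 4 libraries (6.62%), where chance gives about 1 in 20. Igtp was at 7371.8 in Het 53, below 8322.8 to 8462.3 in the other Het libraries. Ifi47 was at 11866.8 in WT 65, above 8133.1 to 8509.3 in the other WT libraries. Het 139 was apart in 3 genes. Gm4951 was at 322.1 there, against 20.8 to 31.7 in the other Het libraries. Gm4841 was at 482.5 in Het 139, against 11.1 to 38.2. Usp18 was at 3330.2 in Het 139, against 975.2 to 1248.7. Il18, a cytokine gene, was at 12.4 in Het 56, below 45.1 to 45.8. WT 65 was above the other WT libraries in Ifnar1 (5484.8, others 4779.6 to 4859.7) and in Il12rb2, an interleukin 12 receptor chain (98.7, others 71.1 to 73.9). Casp1 was at 222.5 in WT 54, above 166.9 to 173.2 in the other WT libraries.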

How the results depend on the processing

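With other pseudocounts, filters, scalings, variance settings, array weights or marker covariates, 9 of 9 GTPase genes stayed above 0 with 0 called, and their median log2 difference ran from 0.12 (array weights) to 0.30 (B cell covariate). Leaving out 1 library at a time gave 8 to 9 of 9 above 0, a median of 0.13 (without Het 139 or without WT 65) to 0.27 and 0 called. The sign turned for Gbp6 without Het 139 (-0.0053) and for Gbp7 without WT 54 (-0.0082); with 1 library left out they ran up to 0.35 and 0.17. The number at an unadjusted limma p under 0.05 was 7 of 9 with the B cell covariate and 0 to 3 otherwise. Over all genes, limma called 62 in all, 123 with any value above 0 (9 higher in Het) and 85 without the trend (10 higher in Het). It called 91 with array weights (1 higher in Het), 14 with a mean of at least 50, 24 with the macrophage covariate and 41 with the B cell covariate. With 1 library left out it called 11 to 94, with 3 higher in Het without Het 56 and 1 without WT 65. The cause was not tested. No paired analysis was possible because the genotypes share no replicate number.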

Other observations

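Markers not described above gave no call by limma in 6 CD4 and regulatory T cell genes (5 higher in Het), 6 plasmacytoid dendritic cell genes (3 higher), 6 tested neutrophil genes (4 higher), 11 naive CD8 genes (7 higher) and 8 heat shock genes. Of the heat shock genes 7 were lower in Het, and their mean log2 level was 9.50, 10.49, 10.80 and 9.20 in Het 31, 53, 56 and 139, and 11.45, 9.82, 10.05 and 11.07 in WT 45, 54, 57 and 65. Het 56 and Het 139, the libraries with the highest GTPase genes, were thus the highest and the lowest Het library in heat shock genes. 9930111J21Rik1, an IRG gene of chromosome 11, was lower in Het on average, at 502.9, 1214.8, 1290.5 and 837.9 in Het 31, 53, 56 and 139, against 1369.8, 794.2, 1230.5 and 1268.3 in WT 45, 54, 57 and 65 (log2 difference -0.34, limma adjusted p = 0.751). Its lowest library was Het 31 and its highest WT 45. Gvin1, a giant interferon-inducible GTPase gene, was listed at 0 in all 8 libraries. Irgc1, an IRG gene known from testis, was at 17.9 ± 4.40 in Het and 8.72 ± 4.13 in WT (SD, n = 4 each, log2 difference 1.04, limma adjusted p = 0.652, exact permutation p = 0.0571), at values that rest on few reads.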
